A study of Mus musculus with 2 samples.

Results

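Myeloid C-type lectins and formyl peptide receptors are surface receptors with which monocytes and neutrophils sense microbes and damaged tissue. Their levels were examined in Ly6C-hi inflammatory monocytes of the mouse colon. The genes were taken by name: 7 C-type lectin receptors (Clec4d, Clec4e, Clec4n, Clec7a, Clec5a, Clec12a and Clec4a2) and the formyl peptide receptors Fpr1 and Fpr2, 9 listed genes in all. The platform annotation gave 8 of them a probe set with a single gene symbol, out of 22180 genes so named on the array. It names no probe set as Fpr1, so Fpr1 was not analysed here.

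The arrays came from Nlrp6-/- mice and from WT mice, both of the C57BL/6 strain. NLRP6 is an innate immune sensor that can assemble an inflammasome. Mice of both genotypes had been injected with AOM (azoxymethane, which causes colon tumours) at 10 mg/kg. From day 5 they were given 2% DSS (dextran sodium sulfate, an agent that damages the gut lining) for 5 days, and the colon lamina propria was taken on day 10. The sorted cells carried CD11b and high Ly6C and lacked CD3 and Ly6G. Each genotype was 1 Affymetrix Mouse Gene 2.1 ST array. The number, age and sex of the mice behind each RNA, and whether the genotypes were littermates, are not given in the sources used here. With 1 array per genotype no difference has an error or a test, and every value below describes these 2 arrays.

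C-type lectin receptors of this group signal in opposite directions. Clec7a (Dectin-1, a receptor for fungal beta-glucan) carries its own tyrosine motif and recruits the kinase Syk. Clec4n (Dectin-2, a receptor for fungal mannans), Clec4e (Mincle, which binds mycobacterial cord factor and the nuclear protein SAP130 of dead cells) and Clec4d (MCL, which pairs with Mincle) signal through the adaptor chain Fcer1g, and Clec5a (MDL-1) through Tyrobp. All lead to Syk, and from there through Card9, Bcl10 and Malt1 to NF-kB. Clec12a (MICL, a receptor for uric acid crystals) and Clec4a2 (DCIR) carry inhibitory motifs (ITIMs) that recruit phosphatases such as Ptpn6. The formyl peptide receptors are coupled to inhibitory G proteins and guide cells towards N-formyl peptides, which bacteria and damaged mitochondria release. Fpr2 also binds annexin A1 and serum amyloid A.

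The promoters of 3 lectin genes are printed because these genes span the range of differences described below: Clec7a was the lowest in Nlrp6-/- relative to WT, Clec12a the highest, and Clec4e lay between them. Each window runs from 250 bases before to 50 bases after the RefSeq start site, in build GRCm38.p6. The Clec7a window is chr6:129472730-129473029 on the minus strand, the Clec12a window chr6:129349994-129350293 on the plus strand, and the Clec4e window chr6:123289822-123290121 on the minus strand. Capitals mark matches, on either strand, to the letters searched: GAGGAA (the core bound by PU.1, a transcription factor of myeloid cells), TTNNGNAA (C/EBP factors), TGANTCA (AP-1), GGGANTTTC (NF-kB) and GAAANNGAA (an interferon response element). Matches of different motifs may overlap.
Clec7a: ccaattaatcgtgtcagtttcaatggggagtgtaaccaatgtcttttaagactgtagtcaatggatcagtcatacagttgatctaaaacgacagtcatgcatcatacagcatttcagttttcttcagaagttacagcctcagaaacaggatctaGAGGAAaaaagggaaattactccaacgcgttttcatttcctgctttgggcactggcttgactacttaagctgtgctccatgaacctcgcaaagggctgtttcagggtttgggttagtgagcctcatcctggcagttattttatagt
Clec12a: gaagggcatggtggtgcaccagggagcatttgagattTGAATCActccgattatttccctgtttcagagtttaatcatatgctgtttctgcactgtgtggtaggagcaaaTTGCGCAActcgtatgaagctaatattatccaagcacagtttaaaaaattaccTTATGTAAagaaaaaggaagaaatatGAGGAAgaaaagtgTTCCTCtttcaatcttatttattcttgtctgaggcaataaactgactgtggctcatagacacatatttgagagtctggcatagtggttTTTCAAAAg
Clec4e: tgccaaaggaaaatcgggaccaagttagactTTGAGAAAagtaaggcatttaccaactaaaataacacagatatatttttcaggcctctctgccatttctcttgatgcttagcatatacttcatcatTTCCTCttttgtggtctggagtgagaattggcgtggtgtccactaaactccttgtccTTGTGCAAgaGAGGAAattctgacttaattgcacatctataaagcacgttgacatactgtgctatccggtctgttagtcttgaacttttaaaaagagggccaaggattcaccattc

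RefSeq promoter windows were at hand for 8 of the 9 genes, Fpr1 included. The PU.1 core was present in 6 of the 8, those of Clec4d, Clec4e, Clec7a, Clec5a, Clec12a and Fpr2, against 28.3% of all 32851 promoter windows. The C/EBP letters were in 7 of the 8, against 40.7% of all windows, and Clec7a was the gene without them in its window. AP-1 letters were in the windows of Clec12a and Clec4a2 (7.81% of all windows), the interferon element in that of Clec4d (8.56%), and the NF-kB letters in 0 of the 8 (1.11%). These matches describe the letters of the windows and no binding was measured.

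All 8 receptors were expressed above the detection floor on both arrays. The floor was set from 1400 probe sets of odorant and pheromone receptor genes, which are thought to be silent in monocytes. It was their 95th percentile and stood at 3.23 on the Nlrp6-/- array and 3.26 on the WT array, in log2 units of the deposited level. The lowest of the 8 receptors on either array still exceeded its floor by 2.75. Levels of different genes were not ranked, since the probes of different genes differ in brightness.

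**Figure D1:**
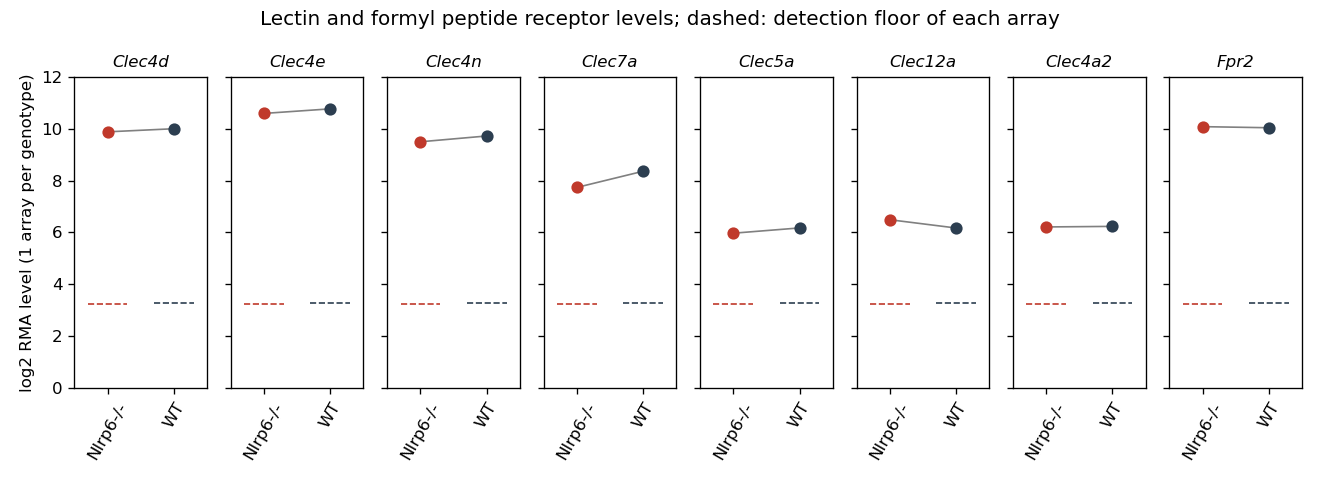
Log2 RMA levels (vertical axis) of the 8 measured receptors on the Nlrp6-/- array (red, left of each panel) and the WT array (dark, right), with the detection floor of each array dashed. Each point is 1 array and there are no error bars; the steepest line is that of Clec7a, at 7.74 in Nlrp6-/- and 8.37 in WT, and heights are not comparable between genes.

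Clec7a was lower in Nlrp6-/-, and the other 7 receptors lay within 1.5-fold of their WT level. Differences below are log2 levels of Nlrp6-/- minus WT. Of the 8 receptors 1, Clec7a, was at least 1.5-fold lower in Nlrp6-/-, a threshold passed by 3.06% of the 9525 genes above the floor on at least 1 array. None was at least 1.5-fold higher, against 6.22% of those genes. None was 2-fold apart, against 1.62% higher and 0.325% lower of all genes. The median difference of the 8 was -0.15, beside 0.01 for all 9525 genes. A lower value in Nlrp6-/-, by any amount, was found for 6 of the 8 receptors and for 48.4% of all genes, and a higher one for 2 of the 8 and for 51.5% of all genes.

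All 5 activating lectins were lower in Nlrp6-/- by some amount, as were 48.4% of all genes, and only Clec7a was past 1.5-fold. Clec7a, the Dectin-1 gene, had a level of 7.74 in Nlrp6-/- monocytes and 8.37 in WT monocytes, a difference of -0.63, which is 1.54-fold lower in Nlrp6-/-. Of all 9525 genes 2.62% had a difference below that of Clec7a. Among the 673 other genes within 0.5 log2 units of its mean level and above both floors, 11.4% were at least as far apart in either direction. Differences of this size were thus not rare on these arrays, and it is unknown how far apart arrays of 1 genotype would lie.

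The other activating lectins lay closer to 0. Clec4n, the Dectin-2 gene, was at 9.50 in Nlrp6-/- and 9.73 in WT, a difference of -0.22. Clec5a, the MDL-1 gene, was at 5.97 in Nlrp6-/- and 6.18 in WT (-0.20). Clec4e, the Mincle gene, was at 10.60 in Nlrp6-/- and 10.78 in WT (-0.18), and its partner Clec4d at 9.89 in Nlrp6-/- and 10.01 in WT (-0.12). The 5 activating lectins thus had a median of -0.20, and the 4 besides Clec7a lay between -0.22 and -0.12. Of genes near each one's level, between 31.1% (Clec4e) and 54.4% (Clec5a) were at least as far apart.

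Of the inhibitory lectins Clec12a was higher in Nlrp6-/-, while Clec4a2 and the formyl peptide receptor Fpr2 were close to equal on both arrays. Clec12a, the MICL gene, had a level of 6.49 in Nlrp6-/- and 6.17 in WT, a difference of 0.32, or 24.9% on the linear scale, the highest of the group. Of genes near its level 35.9% were at least as far apart. Clec4a2, the DCIR gene, was at 6.21 in Nlrp6-/- and 6.24 in WT, a difference of -0.02, and 95.2% of genes near its level were at least as far apart. Fpr2 was at 10.09 in Nlrp6-/- and 10.05 in WT, a difference of 0.04, and 82.4% of genes near its level were at least as far apart. From Clec7a to Clec12a the group spanned 0.95 log2 units. Each of the 8 receptors had a single probe set, so none could be checked against a further probe set of its own.

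**Figure D2:**
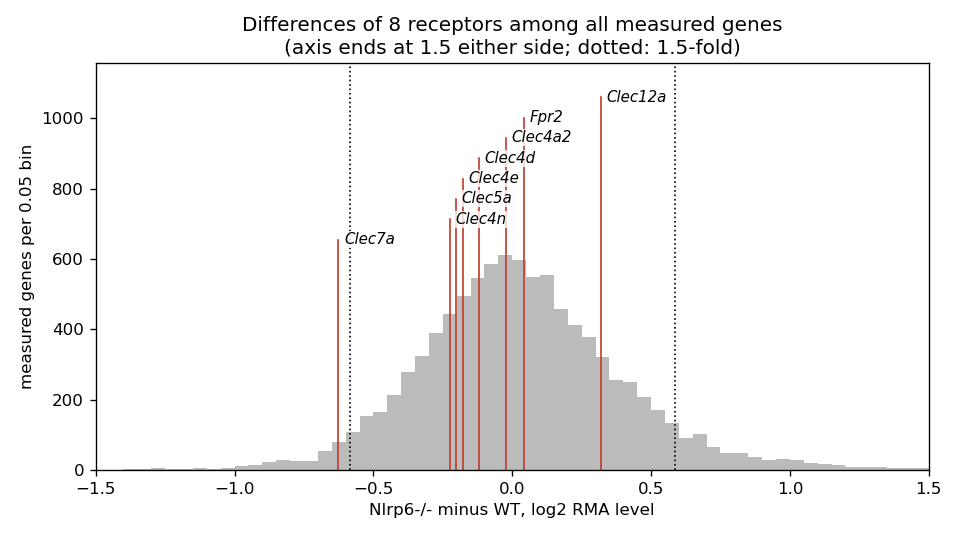
Histogram of the difference in log2 RMA level, Nlrp6-/- minus WT, over the genes above the floor on at least 1 array (grey, genes per bin; genes more than 1.5 apart lie outside the axis), with a red line for each of the 8 receptors and dotted lines at 1.5-fold. Clec7a, at -0.63, lies past the lower dotted line, and the other 7 lie between -0.22 (Clec4n) and 0.32 (Clec12a).

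Most of the lectin genes stand side by side on chromosome 6. In RefSeq gene order, 9 protein-coding genes follow one another from Clec4a1 to Clec4e, and 7 of them were above the floor. The DCIR-like genes Clec4a1 (10.09 in Nlrp6-/- and 9.81 in WT), Clec4a3 (10.11 in Nlrp6-/- and 10.03 in WT) and Clec4a4 (4.14 in Nlrp6-/- and 3.97 in WT) differed by 0.27, 0.07 and 0.17. Clec4a2 in the middle of the row differed by -0.02, and Clec4n, Clec4d and Clec4e at its far end by -0.22, -0.12 and -0.18. The Clec4a genes are close relatives, and whether their probe sets bind each other's transcripts was not tested. A further row of 6 genes runs from Clec12a to Clec7a, the highest and lowest of the group, and the genes between them were below the floor on both arrays (Clec12b, Clec1b and Clec1a) or had no probe set of a single symbol (Clec9a).

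Of the other lectin receptors of these chromosome 6 clusters, 14 of 15 listed genes had a probe set and 7 were above the floor. Of the 7, 5 were higher and 2 lower in Nlrp6-/-, with a median of 0.17. Cd69, an activation antigen of lymphocytes and other leukocytes, was the one past 1.5-fold, at 7.00 in Nlrp6-/- and 6.34 in WT (0.66). Clec2d, whose product is a ligand of an NK cell receptor, was at 9.28 in Nlrp6-/- and 8.87 in WT (0.41). Clec2i was below the floor in Nlrp6-/- and at 3.41 in WT, with a bound of -0.18. A bound sets the level above the floor against the floor, or against the gene's own value where that is higher. Among other myeloid lectin receptors 7 of 18 with a probe set were above the floor, 3 higher and 4 lower, with a median of -0.03. They included Cd302 (6.52 in Nlrp6-/- and 5.92 in WT, 0.60), Cd209a (5.11 in Nlrp6-/- and 5.55 in WT, -0.43) and Cd209c (7.31 in Nlrp6-/- and 6.97 in WT, 0.34). Of the remaining formyl peptide receptor family, Fpr-rs3, Fpr-rs4 and Fpr-rs6, which vomeronasal neurons use, were below the floor on both arrays.

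The adaptor chains Fcer1g and Tyrobp were close to equal on both arrays, while Syk, Plcg2 and Vav1 were lower in Nlrp6-/-. Fcer1g was at 10.60 in both Nlrp6-/- and WT, and Tyrobp at 10.53 in Nlrp6-/- and 10.50 in WT. Syk was at 7.85 in Nlrp6-/- and 8.30 in WT, a difference of -0.45. Plcg2, the phospholipase that Syk activates, was at 5.70 in Nlrp6-/- and 6.32 in WT (-0.62), a size close to that of Clec7a and the one gene of 12 in this list past 1.5-fold. Vav1, an exchange factor for Rac, was at 7.37 in Nlrp6-/- and 7.78 in WT (-0.41). Card9 went the other way, at 4.35 in Nlrp6-/- and 3.78 in WT (0.57), and Bcl10 and Malt1 differed by -0.08 and -0.02. Over the 12 genes, 5 were higher and 7 lower, with a median of -0.05.

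The 3 phosphatases that inhibitory receptors recruit had a median of -0.08. Ptpn6 (SHP-1) was at 8.29 in Nlrp6-/- and 8.36 in WT, Ptpn11 (SHP-2) at 6.06 in Nlrp6-/- and 6.00 in WT, and Inpp5d (SHIP-1) at 4.91 in Nlrp6-/- and 5.18 in WT (-0.27). None reached 1.5-fold. Other inhibitory receptors with ITIMs, 9 genes above the floor, had 6 higher and 3 lower and a median of 0.17, with 0 past 1.5-fold. The furthest apart were Sirpa (8.16 in Nlrp6-/- and 8.51 in WT, -0.35), Pirb (9.58 in Nlrp6-/- and 9.24 in WT, 0.34) and Siglece (6.99 in Nlrp6-/- and 6.69 in WT, 0.30).

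Receptors outside the group that use Fcer1g or Tyrobp, the adaptors of Clec4n, Clec4e, Clec4d and Clec5a, were divided. Of 9 above the floor 6 were higher and 3 lower in Nlrp6-/-, with a median of 0.03. Fcgr1, the high-affinity IgG receptor, was at 7.93 in Nlrp6-/- and 7.05 in WT (0.88), and Trem3 at 6.51 in Nlrp6-/- and 5.82 in WT (0.69). These were the genes of the list past 1.5-fold, and Pilrb1 came next at 0.27.

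On the formyl peptide side, the G protein pathway of chemoattractant receptors had 16 genes above the floor, 2 higher and 14 lower in Nlrp6-/-, with a median of -0.15. Of all 9525 genes 48.4% were lower by any amount. Several of the 14 differed little: Dock2 by -0.08, Arrb1 by -0.05, Arrb2 and Rac2 by -0.04 and Grk5 by -0.03. Plcb3, a phospholipase C, was the one past 1.5-fold, at 4.64 in Nlrp6-/- and 5.23 in WT (-0.59). Gnai3, an inhibitory G protein subunit, was at 7.45 in Nlrp6-/- and 7.95 in WT (-0.49). Pik3cg, the PI3-kinase that G proteins activate, went the other way at 6.98 in Nlrp6-/- and 6.44 in WT (0.54). Gnai2, the main such subunit in leukocytes, was at 8.41 in Nlrp6-/- and 8.54 in WT. Grk6, a kinase of G protein-coupled receptors, was at 3.08 in Nlrp6-/-, below the floor, and 3.61 in WT, with a bound of -0.38.

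**Figure D3:**
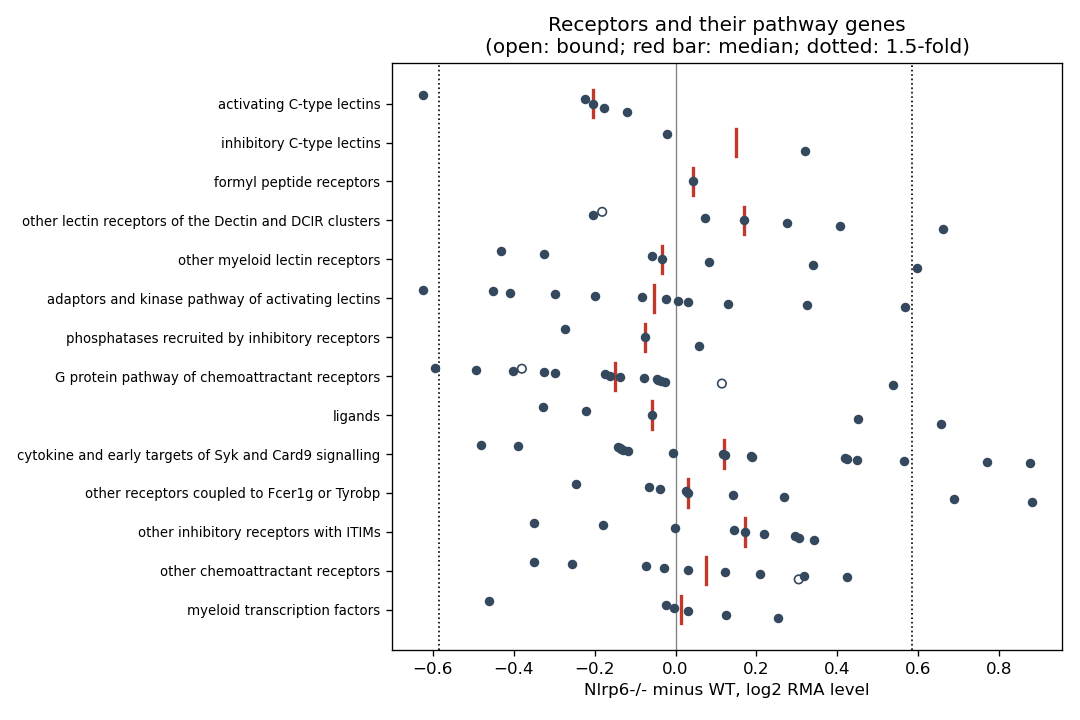
Difference in log2 RMA level, Nlrp6-/- minus WT (horizontal axis), of each gene above the floor in the lists of receptors and pathway genes (rows). Filled points are genes above both floors, open points are bounds, red bars are medians of the measured differences and dotted lines mark 1.5-fold. The 5 activating lectins lie left of 0 with a median of -0.20, and the G protein list has 14 of 16 genes with lower measured levels. Of all genes above the floor on at least 1 array, 48.4% were lower by any amount.

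Genes for ligands of these receptors had a median of -0.06 over the 5 above the floor. Anxa1, which encodes annexin A1, a ligand of Fpr2, was at 7.29 in Nlrp6-/- and 6.84 in WT (0.45). Saa3, a serum amyloid A of inflamed tissue, was at 11.11 in Nlrp6-/- and 11.17 in WT. Lgals9, which encodes galectin-9, was at 7.88 in Nlrp6-/- and 7.22 in WT (0.66), the one ligand gene past 1.5-fold. Sf3b3, which encodes the Mincle ligand SAP130, was at 6.00 in Nlrp6-/- and 6.33 in WT (-0.33). Camp, whose peptide product acts on Fpr2, was below the floor on both arrays.

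Cytokines and early genes that Syk and Card9 signalling can induce were divided. Of 18 above the floor 10 were higher and 8 lower in Nlrp6-/-, with a median of 0.12. Csf3 was at 4.75 in Nlrp6-/- and 3.87 in WT (0.88), and Il6 at 8.90 in Nlrp6-/- and 8.13 in WT (0.77). These were the genes past 1.5-fold, followed by Ccl4 at 0.56. Tnf was at 8.75 in Nlrp6-/- and 9.23 in WT (-0.48). Toll-like receptors induce these genes too, so they are not specific to the lectins.

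Of the 7 listed myeloid transcription factors 6 were above the floor, and 0 of these were past 1.5-fold. Cebpb, on which induction of Mincle depends, was at 7.29 in Nlrp6-/- and 7.04 in WT (0.25). Spi1, which encodes PU.1, was at 7.81 in Nlrp6-/- and 7.83 in WT. Cebpa was at 4.28 in Nlrp6-/- and 4.74 in WT (-0.46), Irf8 differed by 0.12, and over the 6 the median was 0.01.

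The receptors are shared with other phagocytes, so markers of these cells were measured on the same arrays. Monocyte markers had a median of -0.08 over 13 genes, 6 higher and 7 lower in Nlrp6-/-. The higher ones included Ly6c2 at 9.36 in Nlrp6-/- and 9.06 in WT, F13a1 at 6.44 in Nlrp6-/- and 5.38 in WT, and Ms4a6c (0.52). The lower ones included Lyz1 (-0.63), Lyz2 (-0.33), Cd14 (-0.22) and Itgam (-0.21). Neutrophils express Clec4d, Clec4e, Clec7a, Clec12a and the formyl peptide receptors as well. Of 17 neutrophil markers 9 were above the floor, 7 higher and 2 lower in Nlrp6-/-, with a median of 0.50. A higher value by any amount was found for 51.5% of all genes. Cxcr2 and Retnlg were above the floor in Nlrp6-/- only, and the floor rule favours counting such genes as higher. Over all 17 markers, without a floor, the median was 0.18. The summed linear signal over the 17 was 1295 in Nlrp6-/- and 989 in WT. S100a8 (1.16) and S100a9 (1.03), which monocytes express too, and Retnlg, at a bound of at least 3.85-fold, led the list. Mmp8 (-0.17) and Csf3r (-0.05) were the lower ones, and Csf3r was at 8.20 in Nlrp6-/- and 8.25 in WT. The neutrophil antigen Ly6g was at 3.58 in Nlrp6-/- and 3.32 in WT, just above the floors, and the granule genes Camp, Elane, Ltf, Mpo and Ngp were below both.

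Macrophage markers had a median of 0.02, 4 of 8 higher, with a summed signal over 12 genes of 1286 in Nlrp6-/- and 1160 in WT. Cd63 differed by 0.60 and Adgre1 by -0.25, Mertk had a bound of -0.07, and Cd163, Timd4 and Vsig4 were below both floors. Dendritic cell markers had a median of 0.05, 3 of 5 higher, and a summed signal over 12 genes of 827 in Nlrp6-/- and 664 in WT. Bst2, which interferon induces, differed by 0.90, Dpp4 by 0.57 and Cd209a by -0.43, while Flt3, Zbtb46 and Xcr1 were below both floors. The higher macrophage sum in Nlrp6-/- rested on Cd63, at 9.15 in Nlrp6-/- and 8.55 in WT. The higher dendritic cell sum rested on Bst2, at 8.71 in Nlrp6-/- and 7.81 in WT. Without a floor the medians were -0.05 for macrophage and -0.01 for dendritic cell markers.

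Marker lists of the remaining cell types, most of which the gate should remove, had medians above 0. The stated gate names no NK cell marker. Of all 9525 genes 51.5% were higher by any amount. Krt19, Zg16, Tnfrsf17, Cd8a and Gzma were above the floor in Nlrp6-/- only, and the floor rule favours counting such genes as higher. Over all markers with a probe set, without a floor, the median was 0.53 for epithelial and 0.43 for B and plasma cell markers. It was 0.21 for stromal and endothelial and 0.23 for T and NK cell markers. Epithelial markers had a median of 1.01 (12 of 14 higher, summed signal 897 in Nlrp6-/- and 471 in WT). Lypd8 at 1.87, Muc13 at 1.79 and Zg16 at a bound of at least 2.77-fold led the list. Muc2, Tff3 and Car1 differed by 0.11, 0.15 and 0.15. Reg3b and Cldn3 were the lower ones, each at -0.01. For B and plasma cells the marker median was 0.66 (9 of 9 higher, summed signal 4122 in Nlrp6-/- and 2544 in WT), with Mzb1 at 1.62, Jchain at 0.88 and Tnfrsf17 at a bound of 0.72. For stromal and endothelial cells the marker median was 0.24 (10 of 13 higher, summed signal 1348 in Nlrp6-/- and 748 in WT). Mgp differed by 1.45, Col1a2 by 1.19 and Lum by 1.18, but Col1a1 by 0.05. The endothelial genes Pecam1 and Kdr differed by 0.24 and 0.19. Cdh5, also endothelial, was lower in Nlrp6-/- (-0.39), as were Acta2 (-0.16) and Pdgfra (-0.08). For T and NK cells the marker median was 0.23 (7 of 9 higher, summed signal 578 in Nlrp6-/- and 534 in WT). Gzma had a bound of at least 2.55-fold, Gzmb differed by 0.87 and Cd3d by 0.46. Cd3e, another CD3 gene, was lower in Nlrp6-/- (-0.23), as was Il7r (-0.03). Of 12 eosinophil and mast cell markers 3 were above the floor, with a summed signal over the 12 of 171 in Nlrp6-/- and 130 in WT, among them Prg2 at 1.47, Ccr3 at 0.56 and Kit at -0.02. The part of other cells in the receptor differences was not tested, and fewer cells of a type and less RNA per cell cannot be told apart in such bulk samples.

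**Figure D4:**
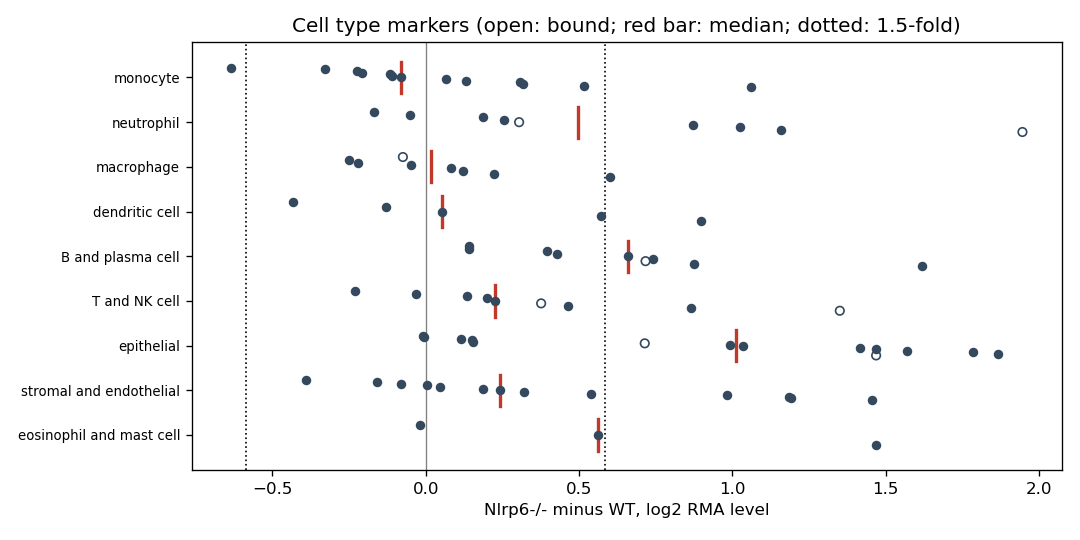
Difference in log2 RMA level, Nlrp6-/- minus WT (horizontal axis), of each cell type marker above the floor (rows are marker lists). Filled points are genes above both floors, open points are bounds, red bars are medians of the measured differences and dotted lines mark 1.5-fold. The monocyte median is -0.08 and the epithelial median 1.01. Over all markers with a probe set, without a floor, these medians are -0.01 and 0.53.

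Nlrp6 itself was below the floor on both arrays, at 2.67 in Nlrp6-/- and 2.32 in WT, so it gives no check of the genotype labels.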

How the data were processed

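RNA of sorted colon monocytes was measured on 2 arrays, 1 per genotype, grouped by the genotype in the labels. Per the labels' protocols, the authors computed robust multiarray averages (RMA) with the oligo package in R 2.15.1, and the deposited values are log2 levels per probe set. RMA equalises the distributions of arrays, so a shift of all transcripts cannot be seen. The sources used here do not say which arrays entered the normalization. Probe sets were named from the platform annotation: of 41345, 23521 had 1 symbol, 1814 several and 16010 none. For each gene the single-symbol probe set with the highest mean was used. Differences are Nlrp6-/- minus WT and no test was run, since the number of arrays limits the precision. List medians use measured differences of genes above the floor on at least 1 array. Computations used Python 3.11.15 and pandas 2.3.3 and were tested on simulated arrays.

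The receptors and gene lists were chosen with earlier results of these data known. Named genes were the receptors, 8 genes fixed by name (Fcer1g, Tyrobp, Syk, Card9, Ptpn6, Anxa1, Cebpb and Nlrp6) and up to 3 per list with the largest differences. Others that are named to complete a pathway, a gene row or a marker list were chosen after their values were seen. Alternatives were 3 further normalizations, averaging over probe sets, another floor or none, and other fold thresholds. Promoter sequences are RefSeq's.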

Additional observations from a re-analysis of the deposited data

How the results depend on the processing

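The counts of receptors past 1.5-fold, 0 higher and 1 lower, were the same with the median difference removed, with quantile normalization repeated, with a loess curve removed (span 0.3), with a gene's probe sets averaged, with the floor raised to the 99th percentile, and without a floor. Clec7a ranged from -0.63 to -0.60 over these settings, Clec12a from 0.30 to 0.32, Fpr2 from 0.04 to 0.08, and the median of the 8 receptors from -0.16 to -0.11. At a 2-fold threshold the lower count was 0, because Clec7a differs by 1.54-fold. At a threshold of 25% higher, or the same ratio lower, it was 1, with 0 higher, against 13.2% lower and 16.9% higher of all genes. Clec12a, at 24.9% higher, lies just under that limit. No value changed sign under any of these settings. Averaging probe sets could not alter the receptors' values, since each receptor had a single probe set. Changing the floor leaves a gene's difference as it is, and all 8 receptors stayed above it. Only the repeated or added normalizations could therefore move these differences. No paired analysis was possible because each genotype has 1 array. With a single array per genotype, neither the spread between mice nor that between arrays is known.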

Other observations

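Of the other listed receptors that guide leukocytes to inflamed tissue, none was called past 1.5-fold, with bounds counted. Of 10 other chemoattractant receptor genes above the floor, 6 were higher and 4 lower in Nlrp6-/-, with a median of 0.08. The count past 1.5-fold was 0, against 6.22% higher and 3.06% lower of all genes. Cxcr2, a neutrophil chemokine receptor, was at 3.57 in Nlrp6-/- and 3.07 in WT, below the WT floor, with a bound of at least 0.30. Ccr1 was at 6.29 in Nlrp6-/- and 5.87 in WT (0.42), and Ltb4r1, a leukotriene receptor, at 3.85 in Nlrp6-/- and 4.20 in WT (-0.35). The complement receptor C5ar1 was at 7.32 in Nlrp6-/- and 7.35 in WT. Ccr2, through which monocytes leave the bone marrow, was at 6.30 in Nlrp6-/- and 5.98 in WT.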
